A study of Homo sapiens with 6 samples.

Results

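The replication-dependent histone genes are the intron-poor genes for the linker histone H1 and the core histones H2A, H2B, H3 and H4. They were taken from the count table by symbol, as all genes whose name consists of HIST, a cluster number from 1 to 4, H, one of the 5 histone classes, letters and an optional digit. The rule found 89 of 56303 genes, of which 6 belonged to H1, 17 to H2A, 23 to H2B, 14 to H3 and 15 to H4 when the 14 pseudogenes by symbol were set apart. RefSeq annotates 18 of the 89 as pseudogenes, and some of these have no pseudogene symbol and stayed among the H2B genes and in the H2B sums. On chromosome 6 lay 65 members, on chromosome 1 lay 21, on chromosome 13 lay 2 and on chromosome 12 lay 1 (build GRCh38).

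RNA-seq was performed on 786-O cells, an established line of clear cell renal cell carcinoma. There were 3 libraries of cells with a control siRNA (labelled wild type, 0 h) and 3 libraries of cells with an siRNA against NFE2L3 (labelled NFE2L3 knockdown, 48 h), and the labelled time and the siRNA therefore cannot be told apart. NFE2L3 is a CNC-type bZIP transcription factor. The genotype label of the second and the last knockdown sample names NFE2L4 and NFE2L5, whereas title and source name give NFE2L3, and both were used as NFE2L3 knockdown. The sources used here do not give which NFE2L3 siRNA was used or whether the libraries came from separate cultures, so p-values may measure a spread that is only technical. The targeted NFE2L3 transcript had 6171, 6508 and 6403 reads with control siRNA and 1087, 1075 and 1068 reads with NFE2L3 siRNA. In bulk RNA, fewer cells in S phase and less histone RNA per cell cannot be told apart.

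Replication-dependent histone genes are transcribed mainly in S phase, when new DNA has to be packed into nucleosomes. Their transcripts are the known exception to polyadenylation in animal cells: they end a few bases behind a conserved stem-loop, which is bound by SLBP and cut with the help of the U7 snRNP, and they are degraded quickly once DNA synthesis stops. Polyadenylated forms of some of them are known, mainly from differentiated or slowly dividing cells. The libraries were made from mRNA enriched with oligo(dT) beads, which hold RNA by its poly(A) tail.

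The stem-loop is shown here because it marks the end at which these transcripts are known to be cut without a poly(A) tail. Transcript sequences of GENCODE v44 lifted to GRCh37 were found by gene name for 85 members, and 70 of them, among them all 17 members that were tested, held a stem-loop. The 15 matched members without one were all annotated as pseudogenes in RefSeq (GRCh38.p14). The capitals mark the 16 bases of the stem-loop, and the lower case letters are up to 5 bases on each side, written 5′ to 3′ on the RNA strand with T for U.
HIST1H1C: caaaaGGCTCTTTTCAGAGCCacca
HIST1H2AC: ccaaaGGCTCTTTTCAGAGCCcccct
HIST1H2BN: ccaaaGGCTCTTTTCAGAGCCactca
HIST1H2BD: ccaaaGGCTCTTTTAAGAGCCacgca
HIST1H2BK: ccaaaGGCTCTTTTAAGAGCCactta
HIST1H3E: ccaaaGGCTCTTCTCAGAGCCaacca
HIST2H4A: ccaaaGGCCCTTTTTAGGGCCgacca
HIST1H4I: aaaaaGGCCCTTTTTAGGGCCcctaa
HIST1H4H: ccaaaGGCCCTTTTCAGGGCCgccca
The members held 10 kinds of stem-loop. The kind of HIST1H1C, HIST1H2AC and HIST1H2BN was found in 40 members, the kind of HIST1H4H in 9, that of HIST1H2BD and HIST1H2BK in 9 and that of HIST2H4A and HIST1H4I in 4. The stem-loop began 22 to 67 bases behind the stop codon in the 68 members where the distance could be measured.

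The annotation differed between members in what lies behind the stem-loop. The transcript of HIST1H1C ended 4 bases behind it and that of HIST1H2BK 5 bases behind it. The longest annotated run behind it was 1128 bases in HIST1H2AC, 1169 in HIST2H4A, 1655 in HIST1H4H and 1862 in HIST1H3E. A poly(A) signal of the letters AATAAA stood in the last 50 bases of a transcript that does not end at a stem-loop in 6 of the 17 tested members and in 10 of the 68 matched members that were not tested. In 4 of the 6 (HIST2H4A, HIST1H2AC, HIST1H3E and HIST1H4H) this transcript runs on behind the stem-loop. In HIST1H2BD and HIST1H2BN it is another transcript, without the stem-loop, and the one with the stem-loop ends 5 bases behind it. These letters describe the annotation and do not show which RNA end was sequenced. In 33 members the exon length in the count table equalled the coding length, so that the counted length left no bases for the stem-loop. HIST1H1C and HIST1H2BK were among the 4 tested members of this kind.

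The histone genes were close to the detection floor in all 6 libraries. Together the 89 members received 961, 1075 and 1048 reads with control siRNA and 955, 1075 and 850 reads with NFE2L3 siRNA. These are 0.00164% to 0.00189% of the library totals, which ran from 51828446 to 57391929 counts. At this depth 1 read was worth 0.0173 to 0.0195 CPM (counts scaled to a common library size of 1000000). Of the 534 values of the members, 257 were 0 (48.1%), and 21 members had no read in any library. In every library, 27 members had at least 1 read and 9 had at least 10. The 5 highest members took 63.4% of the members' reads. Of the 277 values above 0, 245 were even numbers (88.4%), against 68.7% of all values above 0 and under 30 in the table, the pattern of counts in which the mates of a pair are counted separately. The number of independent fragments is then smaller than the counts.

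A filter on low counts (at least about 10 reads in 3 libraries) kept 17 of the 89 members for testing, and 72 were not tested. Of the 19916 genes tested in all, 26.7% passed an adjusted p under 0.05 in edgeR's quasi-likelihood test with Benjamini-Hochberg adjustment, 14% lower and 12.7% higher after knockdown. None of the 17 tested histone genes passed. At an unadjusted p under 0.05 there was 1 of 17 (HIST2H4A), against 36.7% of all tested genes, and at the study's cutoffs of p under 0.05 with a 2-fold change there was none, against 1.1% of all tested genes. In the alternatives, DESeq2 and limma-voom also called 0 of the 17, each with 1 at an unadjusted p under 0.05. Among the 7293 tested genes no higher than the highest tested member, a comparison chosen after the data were seen, 8.32% passed. The median log2 fold change of the 17 was 0.02, with a range from -0.65 to 0.67, and that of all tested genes was -0.00066. The 0.02 is the value of HIST1H3J and HIST1H2AM, a pair with the same 6 counts that entered the median as separate genes. The median standard error was 0.382 for the histone genes and 0.0866 for all tested genes. The summed level of all 89 members was 18.5 ± 0.384 CPM with control siRNA and 17.6 ± 1.36 CPM with NFE2L3 siRNA (SD, n = 3 each), and the groups overlapped. In this sum and in the read totals of the 89 members, the equal counts of HIST1H3J and HIST1H2AM entered for both genes.

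**Figure D1:**
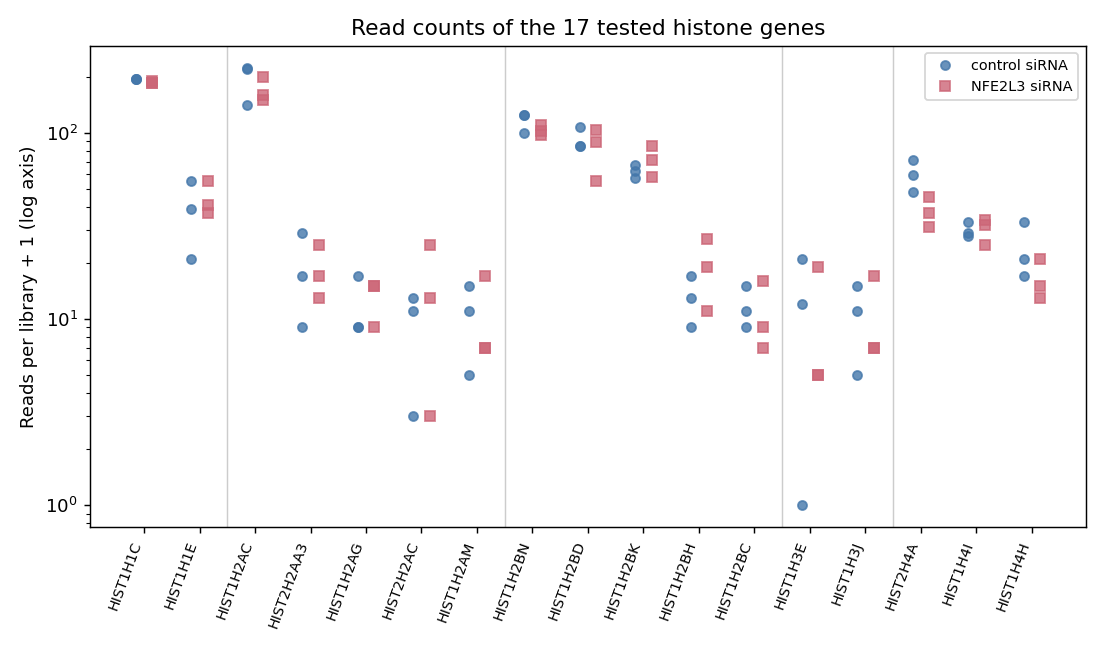
Reads per library plus 1 (log axis) of the 17 tested histone genes, ordered by class (H1, H2A, H2B, H3 and H4 between the grey lines), with 1 point per library, circles for the 3 control siRNA libraries and squares for the 3 NFE2L3 siRNA libraries. The groups overlap in all genes shown but HIST2H4A, where the control libraries had 47 to 70 reads and the knockdown libraries 30 to 44.

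Linker histone H1 binds the DNA between nucleosomes. HIST1H1C (chromosome 6, 26055787 to 26056428, minus strand), the gene for the H1.2 subtype, was the highest tested histone gene both in CPM and per length. It had 192, 194 and 194 reads with control siRNA and 184, 188 and 184 reads with NFE2L3 siRNA. The control libraries had a few reads more, but after scaling for library size the groups overlapped, at 3.49 ± 0.132 CPM with control siRNA and 3.41 ± 0.154 CPM with NFE2L3 siRNA (SD, n = 3 each). The log2 fold change was -0.04 (SE 0.119, adjusted p = 0.87), and its 95% interval allowed a fold from 0.824 to 1.16. HIST1H1E, the gene for H1.4, had 20, 54 and 38 reads with control siRNA and 40, 54 and 36 reads with NFE2L3 siRNA. The lowest value was a control, the highest value of 54 occurred in both groups, and the log2 fold change was 0.25 (95% interval -0.37 to 0.86, adjusted p = 0.598). The other 4 H1 genes were not tested, and 2 of them had no read in any library.

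H2A and H2B pair with each other in the nucleosome, and many of their genes lie head to head in the large cluster on chromosome 6. HIST1H2AC (chromosome 6, 26124145 to 26139116, plus strand) was the highest H2A gene in CPM, with 139, 218 and 222 reads with control siRNA and 158, 199 and 149 with NFE2L3 siRNA. Control replicate 1 lay below all knockdown libraries and the other 2 controls lay above them. The log2 fold change was -0.17 (95% interval -0.47 to 0.14, adjusted p = 0.452). HIST2H2AA3 had 16, 28 and 8 reads against 16, 24 and 12 (0.03, 95% interval -0.86 to 0.91). It has a near-identical copy, HIST2H2AA4, all of whose 100-base stretches are also in other members and which was not tested, with 3, 6 and 8 reads with control siRNA and 18, 13 and 2 with NFE2L3 siRNA. How reads were split between these copies was not tested.

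HIST2H2AC had 2, 10 and 12 reads with control siRNA and 24, 12 and 2 with NFE2L3 siRNA. Each group thus held a library with 2 reads, and the log2 fold change of 0.67 had a 95% interval from -0.59 to 1.93 (adjusted p = 0.463). HIST1H2AG had 8, 8 and 16 reads against 14, 14 and 8, with a log2 fold change of 0.19 (adjusted p = 0.816). HIST1H2AM had 10, 4 and 14 reads against 6, 16 and 6, and HIST1H3J had exactly the same 6 counts. The exons of these genes share 346 bases on the same strand, so the values of the pair are 1 measurement (log2 fold change 0.02, 95% interval -1.10 to 1.14).

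Among the H2B genes, HIST1H2BN was the highest in CPM, with 123, 124 and 98 reads with control siRNA and 101, 109 and 96 with NFE2L3 siRNA. The 3 knockdown counts lay within or just below the range of the control counts (-0.15, 95% interval -0.48 to 0.18, adjusted p = 0.545). Its counted exons cover 5477 bases, of which 397 are shared with HIST1H2AK on the opposite strand or HIST1H2AL on the same strand. HIST1H2BD had 106, 84 and 84 reads with control siRNA and 88, 102 and 54 with NFE2L3 siRNA. Only knockdown replicate 3 lay below the controls, and the log2 fold change was -0.15 (95% interval -0.57 to 0.27, adjusted p = 0.639).

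HIST1H2BK, whose counted exon is 381 bases long, had 61, 66 and 56 reads with control siRNA and 57, 70 and 84 with NFE2L3 siRNA. The knockdown mean was higher and the groups overlapped (0.24, 95% interval -0.20 to 0.67, adjusted p = 0.46). HIST1H2BH had 12, 8 and 16 reads against 26, 18 and 10 (0.60, 95% interval -0.31 to 1.50, adjusted p = 0.35). In this gene 2 knockdown libraries exceeded all controls and the other lay among them. HIST1H2BC had 10, 14 and 8 reads against 6, 15 and 8 (-0.11, adjusted p = 0.898).

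**Figure D2:**
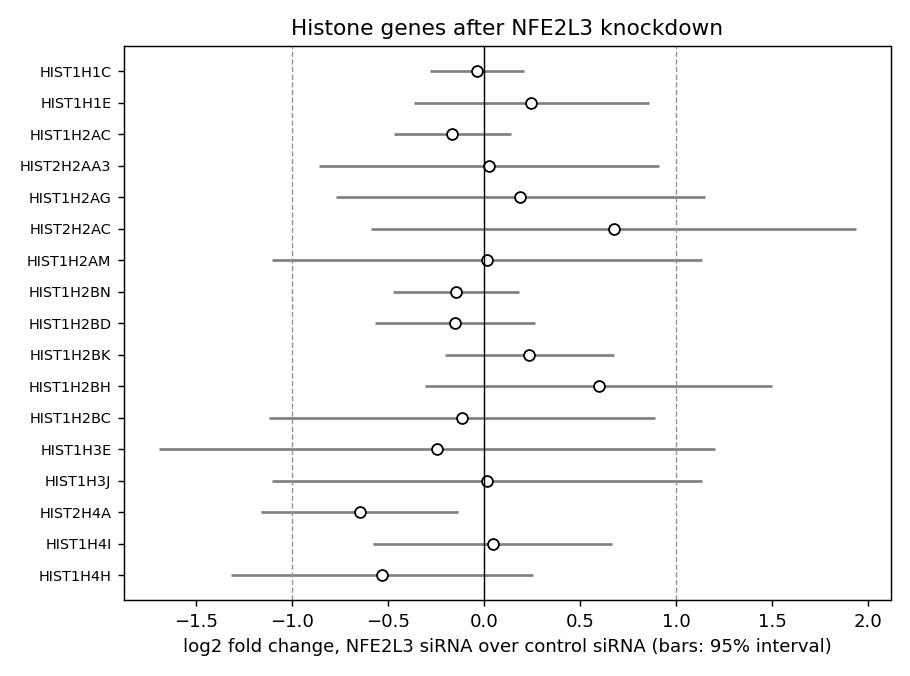
Log2 fold change of NFE2L3 siRNA over control siRNA for each of the 17 tested histone genes, ordered by class, where the points are estimates over 3 libraries a group, the bars are 95% intervals and the dashed lines mark a 2-fold change. The interval of HIST2H4A alone leaves out 0 (-1.16 to -0.13), and intervals of 9 genes reach past a 2-fold change in at least 1 direction.

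H3 and H4 form the inner tetramer of the nucleosome. Few reads came from H3 genes, 46, 27 and 46 with control siRNA and 26, 47 and 26 with NFE2L3 siRNA over all H3 members other than pseudogenes by symbol. These include the counts of HIST1H3J. HIST1H2AM has the same counts, which also entered the H2A sum. HIST1H3E had 20, 0 and 11 reads with control siRNA and 4, 18 and 4 with NFE2L3 siRNA. The highest and the lowest value were both controls, and the interval of its log2 fold change of -0.25 ran from -1.69 to 1.20 (adjusted p = 0.844).

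HIST2H4A (chromosome 1, 149832659 to 149839767, plus strand) came closest to the threshold. It had 58, 47 and 70 reads with control siRNA and 36, 44 and 30 reads with NFE2L3 siRNA, or 1.06 ± 0.226 and 0.670 ± 0.102 CPM (SD, n = 3 each). All 3 knockdown libraries were lower than all 3 controls. Such a separation was seen in 1 of the 17 tested histone genes (5.88%), against 39.5% of all tested genes and 21.9% of those no higher than the highest tested member. The log2 fold change was -0.65 (SE 0.249, 95% interval -1.16 to -0.13), with a p of 0.0157 and an adjusted p of 0.0565 in edgeR's quasi-likelihood test. A two-sided exact permutation test gave p = 0.1, the smallest value that 3 against 3 libraries allow. The call depended on the setting: the adjusted p ran from 0.0268 to 0.238 over 15 alternatives and was under 0.05 in 4 of them. Without control replicate 2 it was 0.0268 (log2 fold change -0.81), and without control replicate 3 it was 0.238 (-0.50).

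Other genes bear on the reading of HIST2H4A. Of its 100-base stretches, 94.9% are also in other members, mostly in HIST2H4B, which had 2 reads in 1 knockdown library and none elsewhere. HIST2H3C, whose exons overlap it over 173 bases on the opposite strand, had 4, 10 and 9 reads with control siRNA and 2, 4 and 2 with NFE2L3 siRNA. The sources used here do not say whether the counting used strand, and in unstranded counts the reads of this pair within those 173 bases could not be told apart.

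Of the other H4 genes, HIST1H4H and HIST1H4I were tested and did not pass. HIST1H4H had 16, 32 and 20 reads with control siRNA and 20, 14 and 12 with NFE2L3 siRNA (-0.53, 95% interval -1.32 to 0.26, adjusted p = 0.338). HIST1H4I had 28, 32 and 27 reads against 33, 24 and 31 (0.04, 95% interval -0.58 to 0.67, adjusted p = 0.937). The groups overlapped in both genes. HIST1H4E, which the filter left out, had 16, 10 and 12 reads with control siRNA and 6, 2 and 6 with NFE2L3 siRNA.

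Summed over the class, H4 was the class whose groups did not overlap. Its 15 genes had 132, 135 and 151 reads with control siRNA and 105, 98 and 90 with NFE2L3 siRNA, or 2.51 ± 0.194 and 1.79 ± 0.0758 CPM (SD, n = 3 each). This was 71.3% of the control level. Without HIST2H4A, a calculation added after the data were seen, the class was at 1.46 ± 0.0634 CPM with control siRNA and 1.12 ± 0.143 CPM with NFE2L3 siRNA, again with no overlap. Without HIST2H4A the class held 74, 88 and 81 reads with control siRNA and 69, 54 and 60 with NFE2L3 siRNA. For single genes, the groups did not overlap in 39.5% of all tested genes. Among tested genes no higher than the highest tested member it was 21.9%. No test was made of the class sums.

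The other classes overlapped between the groups. The H1 sum was 4.34 ± 0.132 CPM with control siRNA and 4.33 ± 0.131 CPM with NFE2L3 siRNA. For H2A it was 4.90 ± 0.977 and 4.89 ± 0.698 CPM, and for H2B 5.93 ± 0.738 and 5.88 ± 0.508 CPM. The H3 sum was 0.721 ± 0.221 CPM with control siRNA and 0.603 ± 0.203 CPM with NFE2L3 siRNA (SD, n = 3 each). The equal counts of HIST1H3J and HIST1H2AM entered both the H3 sum and the H2A sum.

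**Figure D3:**
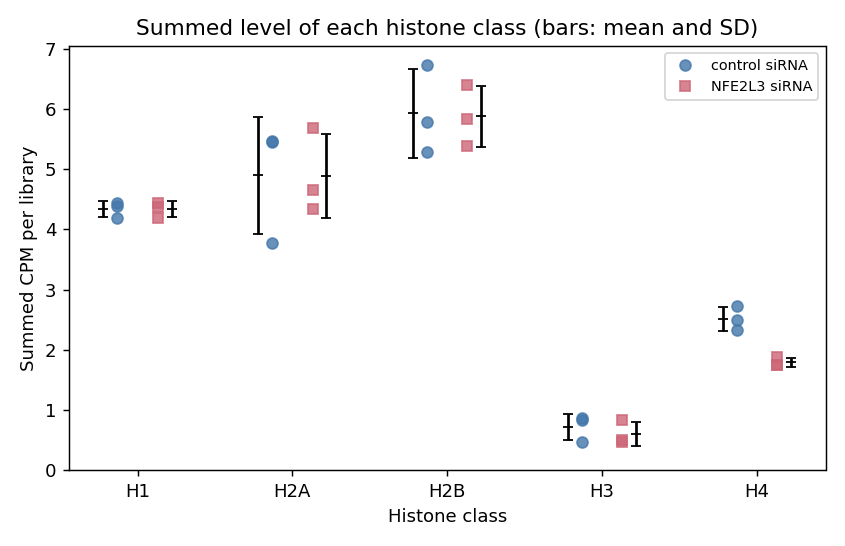
Summed CPM per library of the histone genes of each class (pseudogenes by symbol left out), with 1 point per library for 3 control siRNA (circles) and 3 NFE2L3 siRNA (squares) libraries and bars for mean and SD. The H4 sums were 2.33 to 2.72 CPM in control and 1.74 to 1.88 CPM in knockdown libraries, and the groups of the other classes overlap.

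By cluster, the 67 HIST1 genes took 87.7% of the members' reads and the 17 HIST2 genes 11.6%. The HIST2 genes had 118, 125 and 124 reads with control siRNA and 134, 123 and 65 with NFE2L3 siRNA, so that 1 library, knockdown replicate 3, lay apart from the rest. The 4 HIST3 genes had 18 reads in all and HIST4H4 had 25. The 14 pseudogenes by symbol had 37 reads together, without the reads of members that RefSeq alone annotates as pseudogenes. Members with at least 1000 counted exon bases (21 genes, 8 tested) took 46.2% of the reads, with 8.93 ± 0.503 CPM with control siRNA and 7.74 ± 0.590 CPM with NFE2L3 siRNA. The 68 shorter members were at 9.60 ± 0.126 and 9.85 ± 0.779 CPM (SD, n = 3 each). The groups overlapped in both sets. In the longer set, which includes HIST2H4A, the overlap was narrow, with 8.370 CPM in control replicate 1 and 8.380 CPM in knockdown replicate 2.

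The 72 members that were not tested held 810 reads, 13.6% of the members' reads, and none of them exceeded 18 reads in a library. When every gene with a read was fitted, 68 members had a value and 2 passed an adjusted p under 0.05: HIST2H4A (adjusted p = 0.0445) and HIST2H2BF (adjusted p = 0.0475). Of all 36247 genes in that fit, 2764 passed as lower and 2453 as higher. HIST2H2BF, an H2B gene, had no read with control siRNA and 8, 4 and 2 with NFE2L3 siRNA. HIST1H3B had no read with control siRNA and 4 in each knockdown library (adjusted p = 0.0788). HIST1H4B had 2, 0 and 8 reads with control siRNA and none with NFE2L3 siRNA (adjusted p = 0.128). These are even numbers of very few reads, and no fold is given for a group at 0.

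Per length and among tested genes, all replication-dependent genes lay below all but 1 of the replication-independent histone variants. Most of these variants are transcribed outside S phase too, and most of their mRNAs have a poly(A) tail. Mean levels of the 17 tested members over the 6 libraries ran from 0.0650 RPKM (counts per kilobase of exon, scaled as CPM) in HIST1H3E to 5.37 RPKM in HIST1H1C. Next to HIST1H1C came HIST1H2BK at 3.15, HIST1H2AC at 1.96 and HIST1H2BD at 1.80 RPKM. Of the variants, 11 of 20 were tested. H1FX, a linker histone, was at 64.6 RPKM and H3F3B, a gene for H3.3, at 38.7 RPKM. H2AFZ, the gene for H2A.Z, was at 29.3 RPKM, and H2AFY at 8.62 RPKM still lay above every tested replication-dependent gene. H3F3C, at 0.683 RPKM, was the exception among the tested variants. The 9 untested variants were no higher than 0.128 RPKM (H2AFB1).

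**Figure D4:**
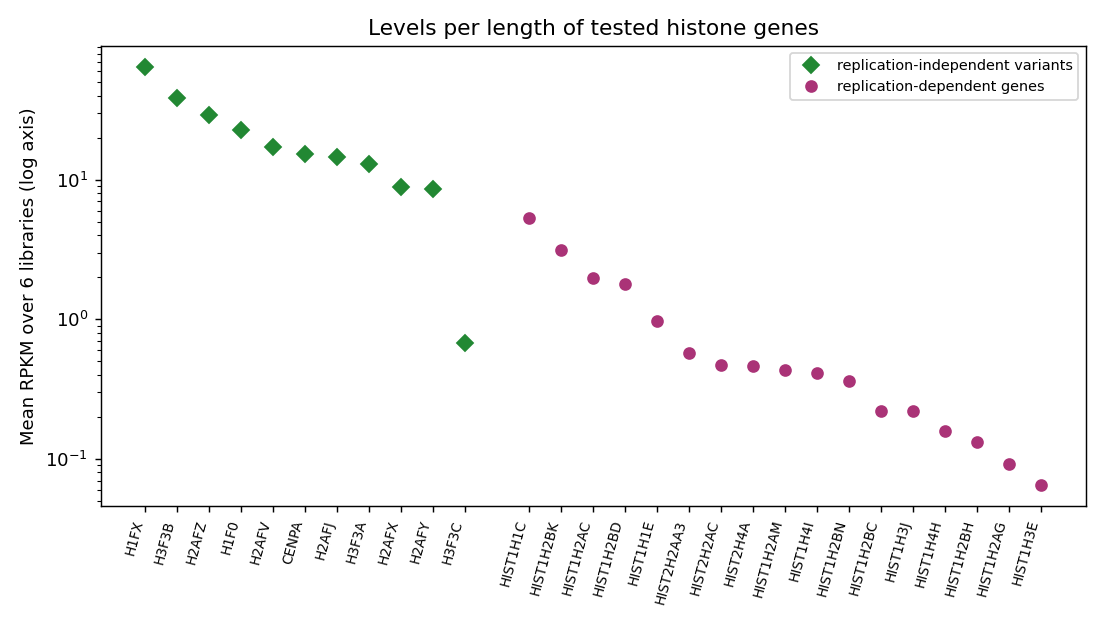
Mean RPKM over the 6 libraries (log axis) of the 11 tested replication-independent histone variants (diamonds) and the 17 tested replication-dependent histone genes (circles), each in falling order. All variants except H3F3C (0.683 RPKM) lie above HIST1H1C (5.37 RPKM), and the replication-dependent genes go down to 0.0650 RPKM.

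Of the 11 tested variants, 3 passed as lower and 1 passed as higher in the same test, with a median log2 fold change of -0.02. Among all tested genes, not matched for level, 14% were lower and 12.7% higher. Without control replicate 2 there were 2 higher variants. The genes for H3.3 went opposite ways. H3F3B had 254.9 ± 9.14 CPM with control siRNA and 219.8 ± 4.23 CPM with NFE2L3 siRNA (-0.21, SE 0.0398, adjusted p = 0.000211), and H3F3A had 37.9 ± 0.963 and 43.9 ± 0.670 CPM (0.21, SE 0.0475, adjusted p = 0.00136). H2AFV and H2AFZ, the H2A.Z genes, were both lower (-0.25, adjusted p = 0.000184, and -0.15, adjusted p = 0.0198), and H2AFZ lost its call in 4 of the 6 fits without 1 library, with adjusted p up to 0.109 without knockdown replicate 2.

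Other RNAs made without a poly(A) tail were read for comparison. RPPH1, the RNA of RNase P, was at 27.3 ± 1.13 CPM with control siRNA and 27.5 ± 0.175 CPM with NFE2L3 siRNA. Its exon shares 104 bases with PARP2 on the opposite strand. RN7SK was at 9.06 ± 0.0449 and 7.96 ± 1.97 CPM (SD, n = 3 each). RNU7-1, the RNA of the U7 snRNP that directs histone 3′ end cutting, was at 2.61 ± 0.548 and 2.43 ± 0.247 CPM, and all of its 63 bases lie in exons of C12orf57. Of the 15 RNAs listed, 8 were tested and none passed in edgeR's quasi-likelihood test, against 26.7% of all tested genes. All tested genes were not matched for level: their median was 8.73 CPM, against 2.92 CPM for the 8. At an unadjusted p under 0.05 there was 1 (VTRNA1-2), against 36.7% of all tested genes, and DESeq2 and limma-voom also called 0. Their median log2 fold change was -0.04. VTRNA1-2 passed without control replicate 1 (-1.66, adjusted p = 0.0179) and RN7SK passed without knockdown replicate 1 (-0.40, adjusted p = 0.00467).

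Transcription of the histone genes is driven by NPAT, a substrate of cyclin E with CDK2, which gathers with CASP8AP2 (FLASH) in the histone locus body. CASP8AP2 had 3303, 3416 and 2729 reads with control siRNA and 4523, 4695 and 4306 with NFE2L3 siRNA. All knockdown libraries were higher than all controls, and the log2 fold change was 0.54 (SE 0.059, adjusted p = 1.41e-07). NPAT had 472, 453 and 483 reads against 599, 570 and 535, also without overlap (0.30, SE 0.0798, adjusted p = 0.00615). Its exons share 143 bases with ATM on the opposite strand.

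SLBP, which binds the stem-loops printed above, had 3771, 4176 and 4074 reads with control siRNA and 4745, 4900 and 4452 with NFE2L3 siRNA. It was higher in all knockdown libraries (72.2 ± 1.14 against 86.3 ± 1.19 CPM, log2 fold change 0.26, SE 0.0416, adjusted p = 4.14e-05). Of the parts of the U7 snRNP, LSM10 passed the test. It fell by 0.39 on the log2 scale, from 6.21 ± 0.450 to 4.73 ± 0.145 CPM (adjusted p = 0.0041), while LSM11 stood at 4.94 ± 0.182 and 5.70 ± 0.0751 CPM (adjusted p = 0.123). ZNF473, the U7-associated zinc finger protein, stood at 5.95 ± 0.785 and 6.24 ± 0.215 CPM (adjusted p = 0.672).

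Of the 24 genes of histone mRNA transcription and 3′ processing, 6 were higher and 4 were lower, with a median log2 fold change of 0.04. Among all tested genes, 12.7% were higher and 14% lower, but these were not matched for level. The 24 genes lay at 5.32 to 204 CPM. All tested genes include 7293 at or below 3.45 CPM, the level of the highest tested histone gene, of which 8.32% passed. SRRT (ARS2), which links the cap to 3′ processing, rose by 0.26 (adjusted p = 0.000423). The genes that fell were LSM10, the Sm proteins SNRPE (-0.40, adjusted p = 3.95e-06) and SNRPG (-0.20, adjusted p = 0.00341) and CPSF2 (-0.15, adjusted p = 0.00497), a subunit of the cleavage factor. Of the 14 genes of histone mRNA decay and translation, 3 were lower and 1 was higher, a share close to the 26.7% of all tested genes, again not matched for level. The lower ones were the decapping enzyme DCP2 (-0.17, adjusted p = 0.0156) and the exosome subunits EXOSC3 (-0.17, adjusted p = 0.0251) and EXOSC10 (-0.12, adjusted p = 0.029). SMG1, a kinase of nonsense-mediated decay that acts on UPF1, was the higher one (0.12, adjusted p = 0.038). These calls depended on single libraries: without knockdown replicate 1 there were 0 lower and 0 higher genes, without knockdown replicate 3 there were 1 and 0, and SMG1, which has near-identical pseudogene copies, also lost its call without control replicate 2, control replicate 3 or knockdown replicate 2. ERI1, the exonuclease that trims the histone stem-loop, stood at 24.4 ± 2.42 and 21.9 ± 0.408 CPM (-0.16, adjusted p = 0.0762).

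Among 27 histone chaperones and assembly factors, 7 were higher and 4 were lower, with a median of 0.05. Of all tested genes, not matched for level, 12.7% were higher and 14% lower. NASP, the chaperone of soluble H3 and H4, was at 763 ± 32.9 CPM with control siRNA and 1057 ± 32.5 CPM with NFE2L3 siRNA (0.47, SE 0.04, adjusted p = 2.72e-09), the smallest adjusted p of the list. ATRX, the remodeller that works with DAXX on H3.3 (0.43, adjusted p = 5.36e-06), and SUPT16H, a subunit of FACT (0.27, adjusted p = 8.87e-06), were also higher. UBN1, a subunit of the H3.3 chaperone HIRA, fell by 0.27 (adjusted p = 2.16e-05).

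Of 24 genes of S phase and DNA replication, 13 were higher and 1 (POLA1, -0.27, adjusted p = 0.00228) was lower, and the median log2 fold change was 0.17. Among all tested genes, not matched for level, 12.7% were higher and 14% lower. The 4 of the S phase list with the smallest adjusted p were MCM3, PCNA, TYMS and E2F1, at 0.60, 0.41, 0.29 and 0.64. E2F1, a transcription factor of the G1/S transition, had 302, 354 and 299 reads with control siRNA and 531, 480 and 453 with NFE2L3 siRNA, without overlap. No histone gene passed beside these, with 0 of 17 in either direction. The standard errors of both lists differed, with medians of 0.0536 for S phase genes and 0.382 for the histone genes. Whether the log2 fold changes of the lists differed was not tested.

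**Figure D5:**
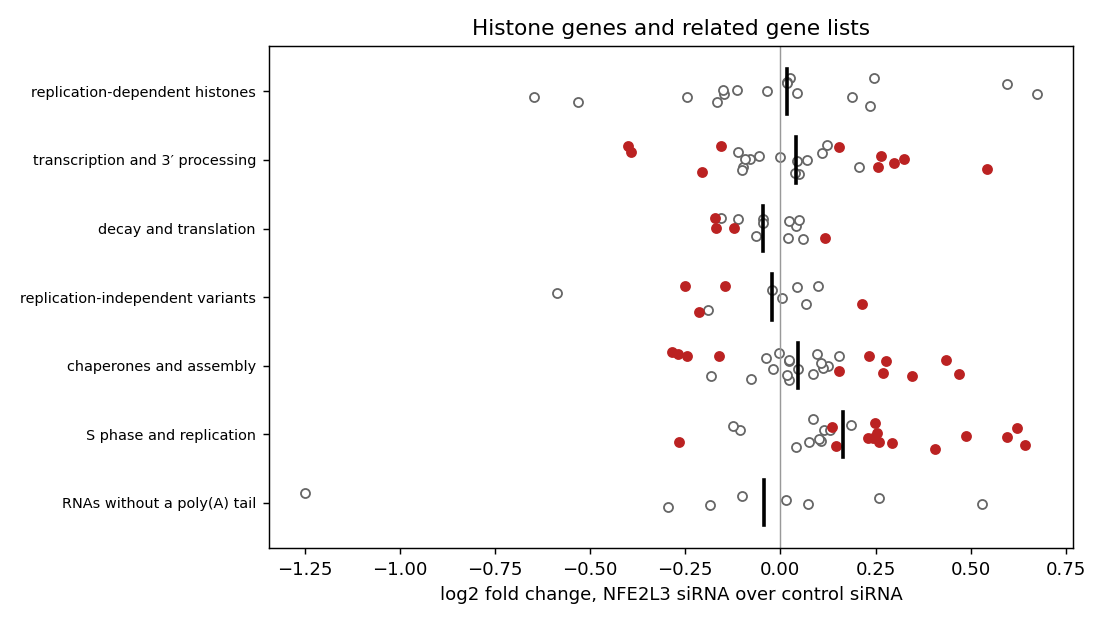
Log2 fold change of NFE2L3 siRNA over control siRNA for each tested gene of 7 lists, where filled points passed an adjusted p under 0.05, open points did not and black bars mark the medians (vertical scatter has no meaning). The histone genes at the top hold 0 filled points of 17 and the S phase list holds 14 of 24, against 26.7% of all tested genes, not matched for level. Of the tested genes no higher than the highest tested histone gene, 8.32% passed.

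The promoters of the histone genes were searched for known elements in RefSeq sequence (GRCh38.p14, windows of 300 bases around the start, both strands), which was matched for 66 members. The octamer ATTTGCAT, the OCT1 site known from H2B promoters, was found in 39.4% of the members against 2.19% of all 27305 matched genes. It was found in 77.8% of H2B, 68.8% of H2A and 0 of the 13 H4 promoters. CCAAT, a site of NF-Y, was in 84.8% of the members and 39.7% of all genes, and among H4 promoters in 23.1%. TATAAA was in 68.2% and 14%. The core letters TGACNNNGC of the antioxidant response element, to which CNC factors such as NFE2L3 bind with small MAF proteins, were in 8 member promoters (12.1%) and in 16.1% of all. A match in these letters describes the window and is not a binding site.

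The labelled line was checked by its markers. Of 11 markers of 786-O and renal carcinoma, 9 were tested, from 0.685 CPM (NDUFA4L2) to 1305 CPM, and CA9 and LRP2 were too low to be tested. Of 9 markers of blood, endothelial, liver and connective tissue cells, 4 were tested and none exceeded 0.740 CPM or passed the test.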

How the data were processed

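RNA-seq of 786-O cells, 3 control siRNA and 3 NFE2L3 siRNA libraries, was analysed. The authors used Trimmomatic 0.36 for trimming, merged reads by molecular identifier, aligned with STAR 2.5.3a to the human genome of Ensembl 87 and ran featureCounts (Subread 1.5.1) over exons, as the methods and the submitters' notes on processing say. Raw read counts in GRCh38 coordinates were deposited, without normalization. The labels name a stranded kit and a DNBSEQ-T7 instrument, and the methods name an Illumina instrument. The sources used here do not give the strand setting of the counting. The table held 0 per-sample columns of other samples.

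R 4.3.3 with edgeR 4.0.16 and limma 3.58.1 served for levels and tests. CPM used library totals scaled by TMM. Genes were kept by filterByExpr (minimum count 10) and tested with the edgeR quasi-likelihood test without a replicate block. The Benjamini-Hochberg adjustment ran over all tested genes, with a threshold of 0.05. Standard errors and 95% intervals come from each fold change and the F statistic of its test. The procedure was tested on simulated data, with independent counts and the same dispersion in all genes. Mates counted separately were not simulated, and recovery was not scored apart for genes at the level of the histone genes. The number of counts limits the precision, and intervals cover only the spread between libraries.

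The histone genes and the lists of related genes were chosen with earlier results of these data known. By rule, the text names every tested histone gene, NFE2L3, NPAT, CASP8AP2, SLBP, LSM10, LSM11, ZNF473 and up to 4 genes per list with the smallest adjusted p, with overlapping genes and copies. HIST1H4E, HIST1H4B, HIST1H3B, HIST2H2BF, HIST4H4, H1FX, H2AFY, H2AFB1, H3F3C, NDUFA4L2, SNRPG, CPSF2, ERI1, POLA1, RPPH1 and RNU7-1 were named after their values were seen. Of 10 abundant polyadenylated housekeeping genes, 2 were lower and 1 was higher, and of the 9 tested 786-O markers 5 were lower and 1 was higher. Among all tested genes, not matched for level, 14% were lower and 12.7% higher. No libraries of a group agreed within sampling noise (chi-square per degree of freedom 4.01 to 7.60). Stem-loops and promoters were read in Python 3.11.15, by gene name and by RefSeq symbols that overlap the same GRCh38 position. As alternatives, library sizes were scaled by RLE or upper quartile or left unscaled, DESeq2 1.42.0 and limma-voom were run, the filter was dropped or raised to 10 counts in each library, counts were halved for pairs of mates, a replicate block was added and each library was left out in turn.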

Additional observations from a re-analysis of the deposited data

How the results depend on the processing

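The count of histone genes lower after knockdown moved from 0 to 1 with no filter, with at least 10 counts in every library and with counts halved, and it was 0 to 1 over the fits without 1 library. The gene was HIST2H4A each time, and with no filter 1 was also higher (HIST2H2BF). Over the whole table, 2764 of 36247 genes were lower and 2453 higher with no filter. With at least 10 counts in every library 2793 of 18333 genes were lower, and with counts halved 2797 of 18074. The median log2 fold change of the histone genes was -0.147 with at least 10 counts in every library (9 genes tested), -0.0860 with counts halved (8 genes tested) and -0.175 to 0.0822 over the fits without 1 library, with fewer or other genes tested in each. The same-numbered libraries did not deviate together (Pearson r across genes -0.0588, -0.158 and -0.0699). This cannot show whether they came from a shared culture, because a shared culture with a small effect could leave the same values. In the fit with the replicate block, 0 of the 17 histone genes passed (HIST2H4A adjusted p = 0.0906) and 2504 genes were lower and 2278 higher over the whole table. In that fit 0 genes of decay and translation were higher (SMG1 lost its call), as with unscaled library totals, and EXOSC10 lost its call (adjusted p = 0.0546). The block changed no other call named here.

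Over the fits without 1 library, decay and translation genes were 0 to 4 lower and 0 to 1 higher, variants were 1 to 2 higher (2 with upper quartile scaling), and RNAs without a poly(A) tail were 0 to 1 lower. H2AFZ lost its call in 4 of these 6 fits. The fits without 1 library turned the sign of single genes, none of them called: the log2 fold change was -0.32 to 0.51 for HIST2H2AA3, -0.15 to 1.15 for HIST2H2AC, -0.55 to 0.15 for HIST1H2BC, -0.029 to 0.57 for HIST1H1E, -0.32 to 0.038 for HIST1H2BD, -1.31 to 0.68 for HIST1H3E, -0.0079 to 0.60 for HIST1H2AG, -0.039 to 0.19 for HIST1H4I, -0.58 to 0.42 for HIST1H3J and HIST1H2AM, and -0.037 to 0.15 for ZNF473. With limma-voom HIST1H3E stood at 0.65. The cause was not tested. CASP8AP2, NPAT, SLBP, LSM10 and NASP kept their direction and stayed under an adjusted p of 0.05 in all 15 alternatives. The precision of the histone genes was low: their median standard error was 0.382, with 0.119 for HIST1H1C, and small changes were not detectable at these counts.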
